A study of Mus musculus with 9 samples.

Results

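The genes described here are those of the centrosome that carry a Cep symbol (centrosomal protein), together with Pcnt, Cntrob, Plk4, Sass6, Nin, Akap9, Pcm1, Cdk5rap2, Tubg1, Tacc3, Stil and Ninl. They were chosen by symbol alone, from probe sets (the groups of probes that measure a transcript) naming a single gene, and the probe set with the highest mean over all arrays stood for its gene. This gave 49 genes, 37 with a Cep symbol and 12 others, of 19938 genes in all. Every one of the 49 lay above the filter on low values described below, by which 16582 genes were tested.

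Primary myoblasts had been taken from wild-type Balb/c muscle, and their total RNA was hybridised to 9 Affymetrix arrays. The groups were cycling myoblasts at 0 days, myotubes after 2 days and myotubes after 5 days in differentiating medium, with 3 arrays each. The samples' growth protocol names the same medium for all of them, Ham's F10 with 20% serum and 4 ng/ml bFGF, so that the differentiating medium of the myotubes is known here from the sample titles only. The labels do not say whether the replicates came from separate cultures or animals, so that p-values cover no more than the scatter of these arrays, which could be purely technical. These are bulk cultures, in which fewer cells of a type and less RNA per cell cannot be told apart.

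The centrosome is a pair of centrioles, barrels of microtubules, embedded in pericentriolar material that nucleates microtubules through gamma-tubulin. The kinase Plk4 starts the building of a new centriole once per cell cycle, and the older centriole can anchor a primary cilium through its appendages. Muscle cells leave the cell cycle when they differentiate and fuse, and pericentriolar proteins such as pericentrin (Pcnt), Akap9 and Pcm1 move from the centrosome to the surface of the nuclei, where microtubules of the myotube grow out. Transcript levels, as measured here, do not show where a protein sits.

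Values are log2 RMA values. The design text says that normalization was run by replicate set, so the time points may not share a scale, and the array median was 4.34 for cycling myoblasts, 4.26 for day 2 and 3.98 for day 5. For this reason a log2 fold change (log2FC) given as a pair is stated first for the deposited values and then for a common scale, after quantile normalization over all 9 arrays. All genes tested had a median log2FC of -0.01 on the deposited scale and 0.09 on the common one at day 2, and of -0.37 and 0.17 at day 5, each relative to cycling myoblasts. A gene is said to have risen or fallen where limma's adjusted p was under 0.05 and the change at least 2-fold in the same direction on both scales. Without the limit on size, 93.3% of all genes tested passed the adjusted p as deposited and 91.4% on the common scale at day 2, 95.2% and 94.5% at day 5, and 94.0% and 90.5% at day 5 against day 2. Deposited replicates were often identical: 25 of the 49 genes had the same value on all 3 arrays of cycling myoblasts, as did 41 at day 2 and 42 at day 5. The adjusted p-values below are therefore too small and rank no gene above another. As deposited, the arrays of cycling myoblasts and day 2 did not overlap for 48 of the 49 genes. Those of cycling myoblasts and day 5 did not for 49, and those of day 2 and day 5 for 47. This was not counted over all genes tested. Separate arrays, where named below, therefore say little about any 1 gene. An array of 35556 probe sets held only 12834 to 17735 distinct values. The largest SD over 3 arrays among the 49 genes was 0.12 in cycling myoblasts (Cep95), 0.065 at day 2 (Cep19) and 0.20 at day 5 (Pcm1).

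At day 2, 16 of the 49 centrosomal genes fell and 1 rose against cycling myoblasts. The falls were 32.7% of the 49, where 8.41% of all genes tested fell, and the single rise was 2.04%, where 6.04% of all genes rose. The 49 genes had a median log2FC of -0.94, or -0.66 on the common scale. At day 5, 22 fell and 0 rose, which made 44.9% falls where 12.3% of all genes tested fell and 4.44% rose. At an unadjusted limma p under 0.05, 8 of the 49 genes were higher on both scales at day 2 and 35 lower. At day 5, 3 were higher and 38 lower, and none of the 3 reached 2-fold on both scales. Of all 16582 genes tested, 7110 were higher and 6204 lower at day 2, and 4926 and 6335 at day 5. The median log2FC of the 49 genes at day 5 was -1.54, or -0.79 on the common scale. Both comparisons use the same cycling myoblast arrays, so they are not independent of each other.

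**Figure D1:**
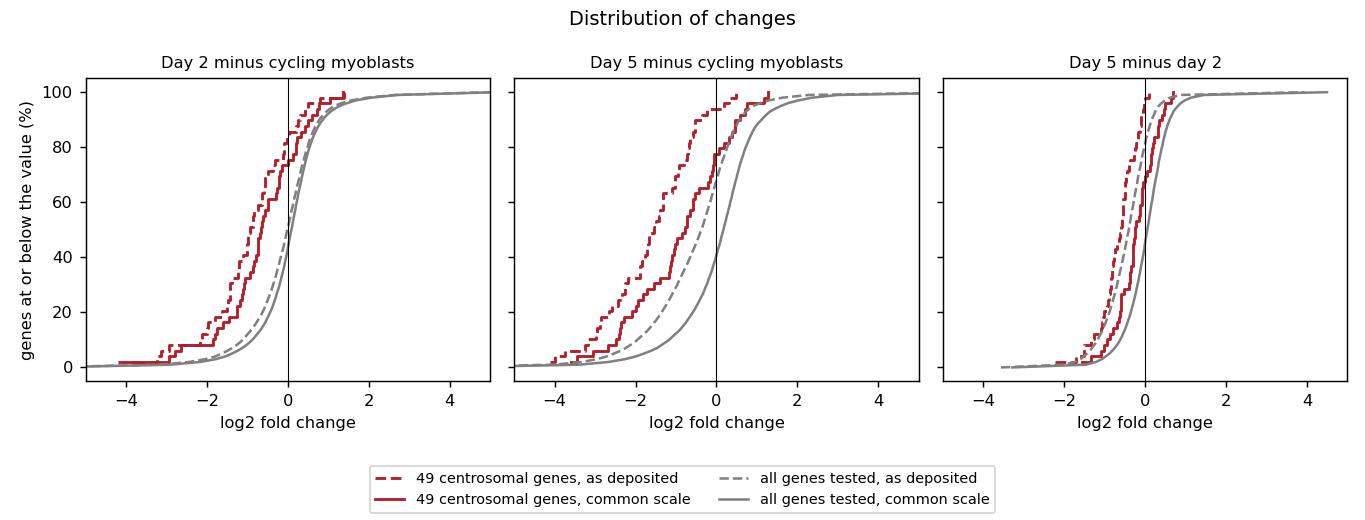
Cumulative share of genes (y axis, %) by log2 fold change (x axis) for the 49 centrosomal genes (red) and all 16582 genes tested (grey), as deposited (dashed) and on the common scale (solid), in each comparison. The red curves lie left of the grey ones over most of their range in all 3 panels, with a median of -0.66 against 0.09 on the common scale at day 2 and -0.79 against 0.17 at day 5.

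The scale matters for the split of calls. As deposited alone, 34 of the 49 genes fell at least 2-fold at day 5 and 0 rose, whereas on the common scale alone 22 fell and 2 rose (Cep19 and Cep43). Over all genes tested the same change of scale moved the day 5 calls to 736 rises and 4840 falls as deposited, and to 1960 rises and 2040 falls on the common scale.

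Cep55 and Tacc3 act in cell division, and both fell at each time. Cep55, which recruits the machinery that cuts daughter cells apart at the midbody, had values of 7.01, 7.18 and 7.18 in cycling myoblasts, 2.92 on each of the 3 arrays at day 2, and 3.02 on each at day 5. Its myotube values lay below the filter value of the arrays, and no myotube array came near a cycling one. Its log2FC at day 2 was -4.21, and -3.91 on the common scale (limma adjusted p = 9.4e-11 and 1.06e-11), and -4.10 and -3.59 at day 5. Tacc3, which stabilises spindle microtubules with clathrin and Ckap5, had values of 8.08 on each array of cycling myoblasts, 4.85 on each at day 2 and 4.35 on each at day 5. It stayed above the array median throughout, although 261 probe sets of the table, that of Cep250 among them, held the same value at day 5. Its log2FC was -3.23 and -2.93 at day 2 and -3.74 and -3.06 at day 5.

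The day 2 value of Cep55 stood at 769 probe sets of the table, that of the centriole gene Stil among them. No probe set level here is shown to lie above background, since no measure of background was used here. Of the 16 falls at day 2, 3 ended no higher than the filter value of each array (Stil, Cep72 and Cep55) and 4 more ended under the array median (Sass6, Cep128, Cep290 and Cep70). At day 5, 6 of 22 falls ended at or below the filter value (Sass6, Stil, Cep126, Cep290, Cep72 and Cep55) and 8 more under the median. The exact sizes of those falls, and their order, are therefore not known.

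Among 14 genes of centriole duplication and assembly 6 fell at day 2 (42.9%, against 8.41% of all genes tested). At day 5, 7 of the 14 fell, where 12.3% of all genes tested did. None rose by the limma criterion, although 3 at day 2 and 0 at day 5 were higher on both scales at an unadjusted p under 0.05. Of all 16582 genes tested, 7110 were higher at day 2 and 4926 at day 5. Plk4, the kinase that starts duplication, had a value of 7.40 on each array of cycling myoblasts, 4.26 on each at day 2 and 3.41 on each at day 5. The 3 groups were wholly separate, and the log2FC was -3.13 and -2.79 at day 2 and -3.98 and -3.45 at day 5. Stil, which Plk4 phosphorylates so that it binds Sass6, was at 5.86 on each array of cycling myoblasts and 2.92 on each at day 2, and at 3.00, 2.94 and 2.72 at day 5. Its day 5 arrays spread around the day 2 value, so that the later time points overlapped. The log2FC of Stil was -2.94 and -2.65 at day 2 and -2.98 and -2.49 at day 5.

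Sass6, the building block of the cartwheel that gives the centriole its symmetry, fell as well (log2FC -1.79 and -1.45 at day 2, -2.86 and -2.38 at day 5). So did Cep192, which brings Plk4 to the centriole together with Cep152. Its value was 6.92 on each array of cycling myoblasts, 4.93 on each array at day 2 and 3.66 on each at day 5, a step down at each time (log2FC -1.99 and -1.61 at day 2, -3.26 and -2.69 at day 5). Cep295, needed for a new centriole to become a centrosome, had values of 6.36, 6.43 and 6.43 in cycling myoblasts, 4.96 on each array at day 2 and 3.46 on each at day 5. It fell by log2FC -1.44 and -1.05 at day 2 and -2.95 and -2.40 at day 5. Cep57 fell at both times (log2FC -1.38 and -1.17, then -2.43 and -1.54), and Cep135, a wall component, fell at day 5 alone by the 2-fold criterion (log2FC -1.69 and -1.17, after -1.21 and -0.94 at day 2).

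The other centriole genes did not pass in either comparison with cycling myoblasts. Cep152 had log2FC -1.39 and -0.86 at day 5, and Cntrob, a daughter centriole protein, had -1.54 and -0.66. Cep44 had -1.32 and -0.54 and Cep97, which caps centrioles with Ccp110, had -1.03 and -0.09. Cep76, Cep63 and Cep120, the last a factor of centriole elongation, had day 5 values of opposite sign on the scales or near 0 on the common scale (log2FC -1.09 and -0.11, -0.36 and 0.58, -0.57 and 0.39). At day 2 these 3 genes had log2FC 0.26 and 0.50, 0.43 and 0.73, and 0.04 and 0.34. The centriole group thus held both Plk4 and Stil, with falls past 2 log2 units on either scale, and members within 1 log2 unit of no change.

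**Figure D2:**
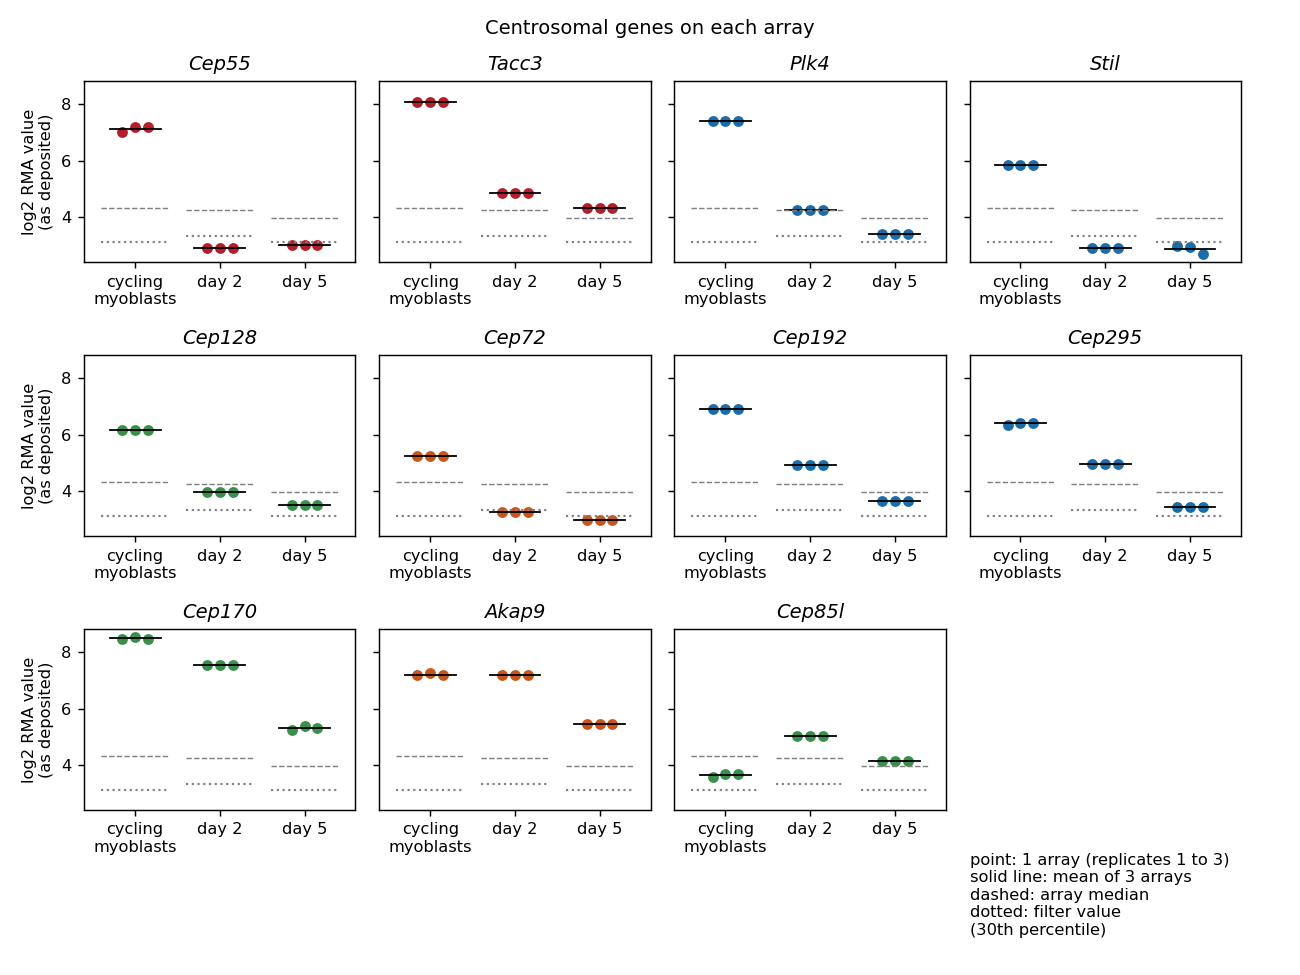
Deposited log2 RMA values (y axis) of 11 centrosomal genes on each of 9 arrays (points; cycling myoblasts, then day 2, then day 5), with the mean of 3 arrays (solid line), the array median (dashed) and the filter value (dotted). Cep55, Stil and Cep72 lie below the filter value in myotubes, Akap9 is level between cycling myoblasts and day 2 and drops to 5.47 at day 5, and Cep85l alone is higher at day 2.

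Promoters are shown for the 4 genes with the most negative fitted log2FC at day 2 and for the gene that rose. Members that move together can so be set side by side at their start sites. The sequences are RefSeq's, build GRCm38.p6, from 250 bases before the start of transcription to 30 after it, and capitals mark matches on either strand to the motifs searched. These were TTTGAA and TTCGAA (the cell cycle homology region bound by the DREAM and MuvB complexes), TTGGCGC or TTGCCGC or TTCGCGC or TTCCCGC (E2F), CCAAT (NF-Y) and CAGCTG (an E-box of myogenic factors), and no spelling contains another. Positions count the first transcribed base as 1.
Cep55, chr19:38054791-38055070, plus strand: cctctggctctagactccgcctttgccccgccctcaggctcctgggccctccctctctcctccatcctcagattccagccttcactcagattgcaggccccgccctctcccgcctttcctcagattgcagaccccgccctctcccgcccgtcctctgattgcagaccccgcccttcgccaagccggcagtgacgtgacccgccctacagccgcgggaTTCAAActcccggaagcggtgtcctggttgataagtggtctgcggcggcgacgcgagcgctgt
Tacc3, chr5:33657878-33658157, plus strand: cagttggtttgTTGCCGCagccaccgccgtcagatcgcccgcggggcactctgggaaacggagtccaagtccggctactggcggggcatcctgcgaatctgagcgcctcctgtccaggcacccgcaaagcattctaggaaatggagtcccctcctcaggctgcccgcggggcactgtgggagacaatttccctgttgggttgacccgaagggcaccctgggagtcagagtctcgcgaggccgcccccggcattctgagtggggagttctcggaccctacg
Plk4, chr3:40799701-40799980, plus strand: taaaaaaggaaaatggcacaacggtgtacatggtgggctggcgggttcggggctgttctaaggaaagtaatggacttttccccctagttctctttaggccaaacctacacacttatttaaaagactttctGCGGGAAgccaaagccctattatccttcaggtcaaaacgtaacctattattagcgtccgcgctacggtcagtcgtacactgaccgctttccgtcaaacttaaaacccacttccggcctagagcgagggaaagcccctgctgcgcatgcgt
Stil, chr4:114999868-115000147, plus strand: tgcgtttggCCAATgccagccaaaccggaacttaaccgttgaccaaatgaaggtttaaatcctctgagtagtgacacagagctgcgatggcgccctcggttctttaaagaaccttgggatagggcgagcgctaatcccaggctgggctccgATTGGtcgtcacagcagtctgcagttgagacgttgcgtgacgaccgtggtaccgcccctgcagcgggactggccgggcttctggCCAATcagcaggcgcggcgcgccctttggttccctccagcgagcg
Cep85l, chr10:53379854-53380133, minus strand: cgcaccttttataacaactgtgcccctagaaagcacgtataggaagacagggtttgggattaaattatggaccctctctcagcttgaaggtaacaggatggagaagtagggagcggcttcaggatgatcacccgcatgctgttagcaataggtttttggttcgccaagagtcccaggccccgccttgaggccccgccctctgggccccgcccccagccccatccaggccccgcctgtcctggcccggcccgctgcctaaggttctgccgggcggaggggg
Cep55 holds TTCAAA, the reverse spelling of the cell cycle homology region, at position -33 from the start site used here and at position 25 from another annotated start. Plk4 holds the reverse E2F spelling GCGGGAA at position -120 and Tacc3 holds TTGCCGC at -239. Stil holds CCAAT at -241 and -15 and its reverse ATTGG at -99, and also E2F spellings at 32 and 44 after the start, past the end of the stretch printed. In Cep85l the CAGCTG at position 44 was the one match, also past the printed end.

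Promoter sequences were found for 41 of the 49 genes. An E2F spelling stood within 250 bases before to 50 after a start in 17 of the 41 (41.5%), against 10.9% of all 27025 genes of the RefSeq table and 16.8% of the 13007 genes tested that have a promoter there. The cell cycle homology region stood in 13 of 41 (31.7%), against 21.7% of all genes and 16.6% of those tested. CCAAT stood in 20 of 41 (48.8%, against 41.1% of all genes and 41.6% of those tested) and CAGCTG in 5 (12.2%, against 18.3% and 19.1%). Among the members with a promoter, 8 of the 15 that fell at day 2 held an E2F spelling, and 9 of the 26 that did not fall. For the cell cycle homology region these were 5 of 15 and 8 of 26. CCAAT went the other way, with 5 of 15 and 15 of 26, and CAGCTG stood in 2 of 15 and 3 of 26. A match is a description of the letters, not a site in use.

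Of 7 genes of the pericentriolar material and microtubule nucleation, 4 fell at day 2 (57.1%, against 8.41% of all genes tested). The same number fell at day 5 (57.1%, against 12.3%). There were 0 rises in either by limma and 0 genes higher on both scales at an unadjusted p under 0.05. Of all 16582 genes tested, 7110 were higher at day 2 and 4926 at day 5. Cep72, a pericentriolar protein, had a value of 5.25 on each array of cycling myoblasts, 3.26 on each at day 2 and 3.00 on each at day 5. Its myotube values were at or below the filter value, and its log2FC was -2.00 and -1.81 at day 2 and -2.25 and -1.81 at day 5. Ninl, a ninein-like protein of the mother centriole, fell by log2FC -1.51 and -1.13 at day 2 and -2.59 and -1.99 at day 5. Cep70 fell similarly (-1.43 and -1.12, then -2.19 and -1.71). Cdk5rap2, which activates the gamma-tubulin ring complex, fell by -1.44 and -1.08 at day 2 and -2.26 and -1.39 at day 5.

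The scaffold and the nucleator themselves did not pass. Pcnt, the main scaffold of the pericentriolar material, had values of 6.09 on each array of cycling myoblasts, 5.52 on each at day 2, and 5.36, 5.36 and 5.34 at day 5. The arrays of the 3 groups were separate as deposited, but the log2FC was small (-0.57 and -0.22 at day 2) and of opposite sign on the scales at day 5 (-0.74 and 0.18). Tubg1, gamma-tubulin itself, had values of 8.22, 8.25 and 8.22 in cycling myoblasts, 7.36 on each array at day 2 and 7.31 on each at day 5. On the common scale it differed by log2FC -0.70 at day 2 and by -0.06 at day 5 (-0.87 and -0.92 as deposited). Akap9, a large anchoring protein of the centrosome and the Golgi, is described with the late changes.

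Cohesion of the centrosome and the subdistal appendages, which anchor microtubules at the older centriole, were represented by 9 genes, of which 1 fell (11.1%, against 8.41% of all genes tested) and 1 rose at day 2, and 2 fell at day 5 (22.2%, against 12.3%). These shares are near those of all genes. Cep128, a subdistal appendage protein, had 6.15 on each array of cycling myoblasts, 3.99 on each at day 2 and 3.50 on each at day 5. All arrays of myotubes were below all of cycling myoblasts, with log2FC -2.16 and -1.85 at day 2 and -2.65 and -2.09 at day 5. The other fall at day 5 was Cep170, a further subdistal appendage protein. Cep250, the linker protein C-Nap1, had log2FC -0.86 and -0.50 at day 2 and -1.31 and -0.58 at day 5, and ninein (Nin) had -1.01 and -0.63, then -1.49 and -0.72. Cep68 (-0.08 and 0.21, then -1.03 and -0.07), Cep85 (-0.31 and -0.01, then -0.53 and 0.46) and Cep112 (-0.56 and -0.57, then -0.67 and -0.43) did not pass either.

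Cep85l was the single gene of the 49 that rose. Its values were 3.60, 3.70 and 3.70 in cycling myoblasts, 5.04 on each array at day 2 and 4.14 on each at day 5. Day 2 stood above both other groups without overlap, and cycling myoblasts were under the array median, so that the size of the rise is not exact. The log2FC was 1.38 and 1.36 at day 2 (limma adjusted p = 2.59e-09 and 5.8e-10) and 0.47 and 0.76 at day 5, where it did not pass.

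Of 11 genes of the cilium, the distal appendages and the centriolar satellites, 3 fell at day 2 and 6 at day 5, each against cycling myoblasts. These were 27.3% and 54.5%, where 8.41% and 12.3% of all genes tested fell. Between day 2 and day 5, 0 of the 11 fell by limma, where 3.67% of all genes did. In so few genes 0 cannot be told apart from that share. At an unadjusted p under 0.05, 6 of the 11 were lower on both scales and 0 higher. Of all 16582 genes tested, 6749 were lower and 2683 higher. Cep41, needed for the glutamylation of tubulin in cilia, fell at both times (log2FC -2.13 and -1.76 at day 2, -2.88 and -2.28 at day 5). Cep290, of the transition zone at the base of the cilium, fell by -1.47 and -1.25 and then by -2.33 and -1.93, and Cep78 by -1.64 and -1.25 and then by -1.90 and -1.04. The distal appendage protein Cep83 (log2FC -1.84 and -1.15), Cep162 (-1.66 and -1.02) and Cep126 (-1.31 and -1.11) passed at day 5. At day 2 they were at -1.21 and -0.84, -1.11 and -0.75, and -0.74 and -0.74, short of 2-fold on the common scale, and none passed between day 2 and day 5. Cep162 was at the limit: leaving out any 1 array of cycling myoblasts put its common-scale value at -0.99, and the call was lost. The distal appendage proteins Cep164 (-0.95 and -0.17 at day 5) and Cep89 (-0.23 and 0.71) did not pass, nor did the satellite protein Cep131 (-0.81 and 0.06).

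Cep19, a basal body protein, had log2FC 0.31 and 0.59 at day 2 and 0.30 and 1.28 at day 5, past 2-fold on the common scale only. Of the 6 genes given no role here, Cep57l1 alone fell, at day 5 (log2FC -1.77 and -1.10). That is 16.7% of them, where 12.3% of all genes tested fell. Cep43, which the literature on human cells calls FOP, was at log2FC 0.79 and 1.05 at day 2 and 0.20 and 1.18 at day 5, so that it too passed on the common scale alone. Cep170b (-1.66 and -0.73), Cep95 (-1.43 and -0.58), Cep295nl (-0.70 and -0.21) and Cep20 (-0.65 and 0.31) did not pass at day 5.

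**Figure D3:**
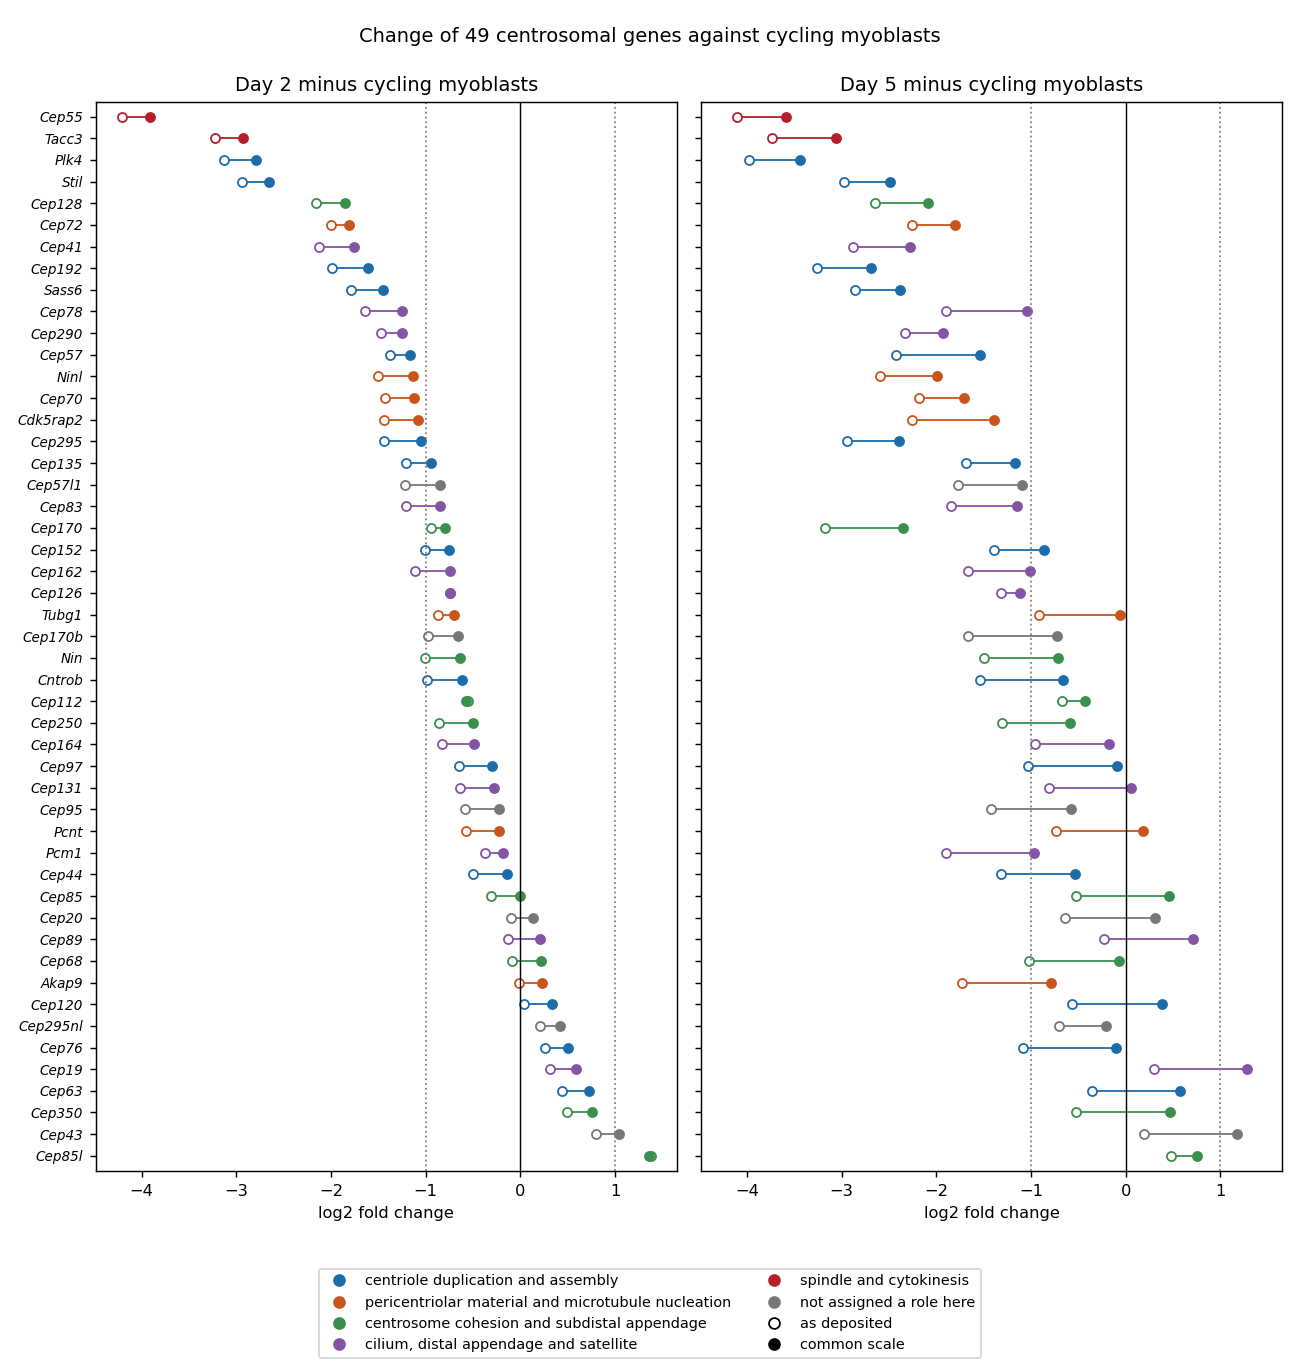
Log2 fold change (x axis) of each of 49 centrosomal genes (rows, ordered by the common-scale value at day 2) at day 2 (left) and day 5 (right) minus cycling myoblasts, as deposited (open) and on the common scale (filled), coloured by role. Dotted lines mark a 2-fold change, and the open points lie left of the filled ones for 47 of the 49 genes at day 2 and for all 49 at day 5.

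Between day 2 and day 5, 4 of the 49 genes fell (8.16%, where 3.67% of all genes tested fell) and 0 rose (0.766% of all genes rose). None of the 49 was higher on both scales at an unadjusted limma p under 0.05, and 33 were lower. Of all 16582 genes tested, 2683 were higher and 6749 lower. The 4 that fell at least 2-fold were Cep170 of the subdistal appendages, the centriole genes Cep295 and Cep192, and Akap9 of the pericentriolar material. Cep170 had values of 8.47, 8.52 and 8.47 in cycling myoblasts, 7.55 on each array at day 2, and 5.24, 5.37 and 5.32 at day 5. Every day 5 array was below every day 2 array, with log2FC -2.24 and -1.56 between them (limma adjusted p = 6.72e-10 and 3.13e-09). Against cycling myoblasts Cep170 had -0.94 and -0.80 at day 2, short of 2-fold, and -3.18 and -2.36 at day 5.

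Akap9 had values of 7.17, 7.25 and 7.17 in cycling myoblasts, 7.18, 7.18 and 7.17 at day 2, and 5.47 on each array at day 5. Cycling myoblasts and day 2 overlapped, and day 5 was below both. The log2FC was -1.71 and -1.02 between day 5 and day 2, near the limit on the common scale, and -0.02 and 0.23 between day 2 and cycling myoblasts. Cep295 fell by -1.51 and -1.35 and Cep192 by -1.27 and -1.08. With arrays centred on their medians instead, Cep192 was at -0.99 and did not pass.

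Pcm1, the scaffold of the centriolar satellites, moved late as well without passing on both scales. It was at 7.85, 7.87 and 7.85 in cycling myoblasts, 7.48 on each array at day 2, and 5.85, 5.85 and 6.19 at day 5. Replicate 3 of day 5 stood apart from the other 2 and gave the widest spread among the 49 genes. The log2FC was -1.52 and -0.79 for day 5 against day 2 and -1.89 and -0.97 for day 5 against cycling myoblasts. Without that array the last pair became -2.01 and -1.09, and Pcm1 passed. Among the genes whose proteins are known to move to the nuclear surface in myotubes, the log2FC at day 5 against cycling myoblasts was -0.74 and 0.18 for Pcnt, -1.73 and -0.79 for Akap9 and -1.89 and -0.97 for Pcm1. Akap9 and Pcm1 were past 2-fold as deposited and with arrays centred on their medians (-1.37 and -1.54), but not on the common scale.

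**Figure D4:**
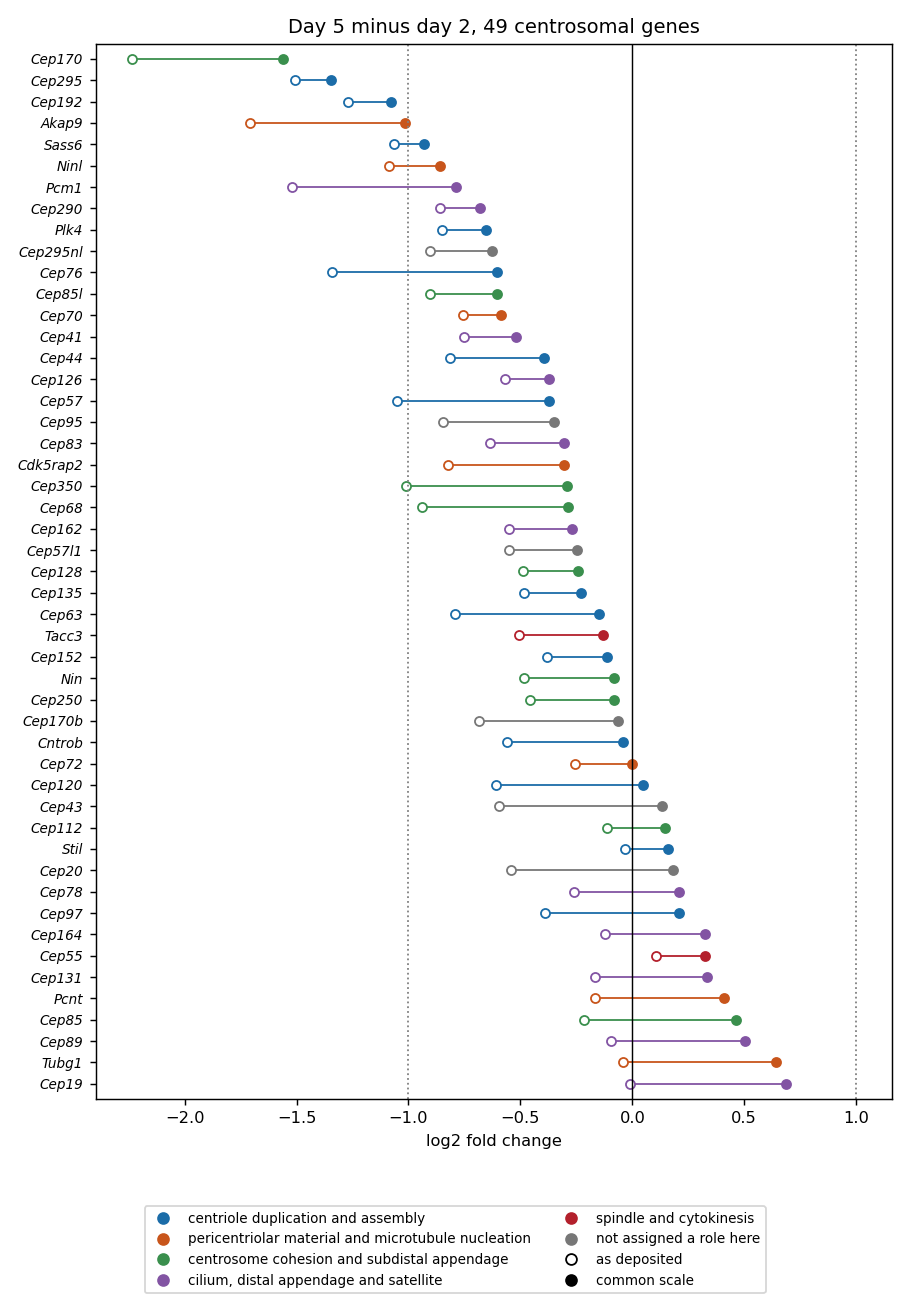
Log2 fold change (x axis) between day 5 and day 2 for each of 49 centrosomal genes (rows, ordered by the common-scale value), as deposited (open) and on the common scale (filled), coloured by role. Cep170, Cep295, Cep192 and Akap9 are past the dotted 2-fold line on both scales, and no gene is past it on the right.

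Several probe sets naming the gene alone were present for 4 of the 49 genes, which allowed a second look at the same transcript. The 3 probe sets of Cep192 gave common-scale log2FC -1.61, -1.69 and -1.49 at day 2 and -2.69, -3.48 and -3.10 at day 5. As deposited they gave -1.99, -2.04 and -1.52 at day 2. All 3 were lower at both times, and the pair not used ended at means of 2.23 and 0.67 at day 5, below the filter value, so that the sizes of their falls are not known. The 6 probe sets of Cep350, a protein that binds Cep43, gave 0.65 to 1.09 at day 2 and -0.15 to 0.46 at day 5 on the common scale, all higher at day 2 and on either side of 0 at day 5. As deposited these were 0.37 to 0.83 and -1.09 to -0.40. The probe set that stood for Cep350 did not pass at either time (log2FC 0.49 and 0.76 at day 2, -0.52 and 0.46 at day 5).

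The pair for Cep164, a distal appendage protein, were both lower at day 2 (-0.49 and -0.59 on the common scale, -0.83 and -0.64 as deposited) and differed at day 5 (-0.17 and -0.91 on the common scale, -0.95 and -1.19 as deposited). For Cep63, a partner of Cep152, the pair disagreed in sign at day 2 (0.73 and -0.35 on the common scale, 0.43 and -0.22 as deposited), and the second had a mean of only 3.67 in cycling myoblasts. In addition 23 probe sets named Cep170 together with Camkv and Rpl21, and 1 named Cep41 with Ubap1. These were left out, as probe sets naming several genes.

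**Figure D5:**
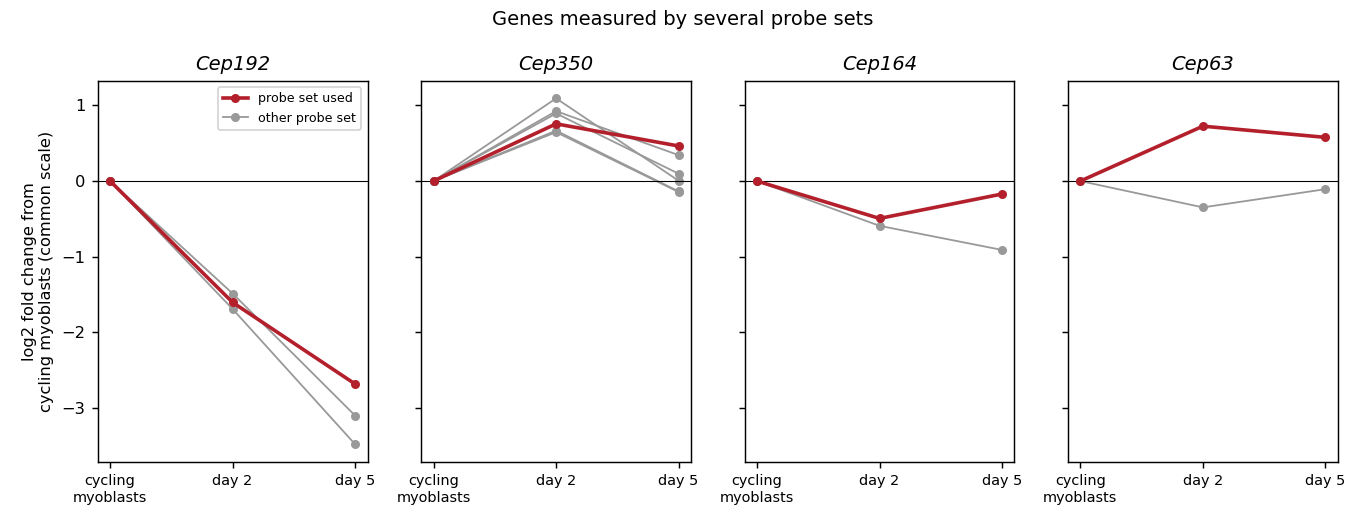
Common-scale log2 fold change from cycling myoblasts (y axis) at day 2 and day 5 for every probe set of the 4 centrosomal genes with several, the probe set used in red and others in grey. The 3 lines of Cep192 run together downward to between -2.69 and -3.48 at day 5, and the lines of Cep63 lie on opposite sides of 0.

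Related genes of the centrosome were read from 5 lists, which held 64 tested genes beside the 49. At day 2, 18 of the 64 fell and 1 rose, and at day 5, 23 fell and 1 rose. The falls were 28.1% and 35.9%, where 8.41% and 12.3% of all genes tested fell. Among 19 genes of the spindle pole and centrosome separation 0 rose by limma. At an unadjusted p under 0.05, 2 were higher on both scales each time, as were 7110 of all 16582 genes tested at day 2 and 4926 at day 5. Of the 19, 10 fell at each time (52.6%). Those with the most negative fitted values were the spindle factor Tpx2 (log2FC -5.27 and -5.10 at day 2), Plk1 (-4.87 and -4.66), the kinase that matures centrosomes for mitosis, the motor Kif11 (-4.86 and -4.65), and Nek2 (-4.75 and -4.56), which releases the linker between centrosomes. At day 2 Kif11 ended at or below the filter value and the other 3 under the array median, so that the exact sizes and the order of these falls are not known either. In the same list Kif24, which acts with Ccp110 at the end of the centriole, was at 0.08 and 0.37 at day 2 and fell by day 5 (log2FC -1.99 and -1.27).

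Other centriole assembly genes fell in 5 of 12 cases at day 2 and 6 of 12 at day 5. Poc1a (log2FC -2.17 and -1.85 at day 2), Rttn (-1.74 and -1.40), Ccp110 (-1.76 and -1.39), which caps centrioles, and Cenpj (-1.34 and -1.04), which sets their length, were among them. The list of 12 had a median log2FC of -1.31 and -0.96 at day 2. The gamma-tubulin ring complex had 1 fall of 9 at day 2 (11.1%, against 8.41% of all genes tested), its adaptor Nedd1 (log2FC -1.45 and -1.16). At day 5 it had 3 (33.3%, against 12.3%), with Tubgcp3 (-2.03 and -1.11) and Tubgcp5 (-1.90, and just past 2-fold on the common scale) besides Nedd1 (-2.22 and -1.32). Distal appendage, satellite and ciliary genes had 1 fall of 12 at day 2 (8.33%), Sclt1 (log2FC -1.82 and -1.61). They had 2 at day 5 (16.7%), where Rpgrip1l (-1.90 and -1.36) joined it. The shares of this ciliary list, and the day 2 share of the ring complex, are near those of all genes. Between day 2 and day 5, where 3.67% of all genes tested fell, 2 of the 64 fell by limma: Kif24 (log2FC -2.07 and -1.64) and Rpgrip1l (-1.68 and -1.46).

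The nuclear envelope anchors of microtubules in muscle had 1 rise and 1 fall of 12 at day 2 (8.33% each), with a median log2FC of 0.01 and 0.25. These shares are near those of all genes tested, of which 6.04% rose and 8.41% fell. Akap6, which binds pericentrin and Akap9 to the nuclear surface of myotubes, rose by log2FC 2.90 and 3.08 at day 2 and by 1.56 and 2.44 at day 5. Cycling myoblasts had a mean of 5.35, day 2 of 8.25 and day 5 of 6.91. Syne1, whose short form holds Akap6 at the nucleus, was at -0.42 and -0.07 at day 2, and a probe set for the whole gene does not separate its forms. Syne2 fell (log2FC -2.38 and -2.02), and Camsap2, which binds the minus ends of microtubules, fell at day 5 (-2.27 and -1.37). The lists were not tested as sets, and their counts are read beside the same 8.41% and 12.3% of falls over all genes tested.

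The cultures' state was read from marker genes. All 5 measured proliferation markers fell at day 2 and at day 5, and their mean level ran from 8.99 to 9.03 over arrays of cycling myoblasts, 3.92 on every array at day 2 and 3.62 at day 5. The falls at day 2 came at the same time as those of this list, and its part in them was not tested. Between day 2 and day 5, 0 of the 5 proliferation markers fell or rose by limma, with a median log2FC of -0.35 and -0.08. At an unadjusted p under 0.05, 0 were higher and 3 lower on both scales, where 2683 and 6749 of all 16582 genes tested were. The mean level of the proliferation markers at day 2 was already under the array median of 4.26, and Mki67 (3.26) was below the filter value. A further fall of these markers could therefore be hidden. Cep170, Cep295, Cep192 and Akap9 fell between the same times, and a relation to proliferation was not tested. Myotube markers rose in 6 of 6 cases at day 2 and 5 of 6 at day 5, Ckm by log2FC 4.83 and 5.12 at day 2. Of the myoblast markers, Pax7 and Myf5 fell and Des rose at both times. Myod1, the remaining one, fell at day 5 (log2FC -2.04 and -1.43, after -0.96 and -0.93 at day 2). Of the other cell types the cultures could hold, the 5 endothelial markers were under the array median on every array, as were 4 of 5 macrophage and 3 of 6 fibroblast markers. Mean levels of the fibroblast list were 3.59 in cycling myoblasts, 3.56 at day 2 and 3.65 to 3.71 at day 5. On the common scale all 4 fibroblast markers tested were higher at day 5 than in cycling myoblasts, by log2FC 0.36 to 0.66, without passing, and Pdgfra was higher at day 5 than at day 2 by 0.69 and 1.19. The endothelial means were 3.12, 3.32 to 3.34 and 3.31 to 3.32, and the macrophage means 3.24, 3.41 and 3.21. Schwann cell markers were measured by Sox10 and S100b only, at a mean of 3.35, 4.13 and 3.65, and S100b, under the filter value in cycling myoblasts, rose at day 2 (log2FC 1.43 and 1.28). No marker is at 0 on this scale, and none of these lists was tested as a cause.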

How the data were processed

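Total RNA of 9 samples was hybridised to Affymetrix arrays. The deposited values are log2 expression values made by the authors with RMA, per the submitters' processing notes, run for each replicate set, per the series' design text. The sources used here give no version of it. What a replicate set was is not stated there, and it is taken here to be the time point. Arrays of a time point had identical values for 51.4% to 67.8% of 35556 probe sets (tolerance 1e-06), and arrays of different time points for 0%. No measure of background was used here.

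In GEO's annotation of the array, 21789 probe sets carry 1 gene, 1621 carry several and 12146 carry none, and 21698 matched the GRCm38.p6 RefSeq gene table by Entrez identifier, which changed 0 symbols. The highest-mean probe set stood for each gene. Genes above the 30th percentile of their array on at least 3 arrays were tested with limma 3.58.1 in R 4.3.3 (a mean per time point, all 9 arrays, lmFit and eBayes, Benjamini-Hochberg over 16582 genes), as deposited and after quantile normalization. A change needed adjusted p under 0.05 and at least 2-fold on both scales. The fit was also run on simulated arrays, whose replicates were not identical, so that run says nothing about the size of the p-values here.

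All 49 genes are named. Array values are given for the 6 falls with the most negative common-scale log2FC, and up to 4 rises, against cycling myoblasts at each time. They are also given for calls at day 5 against day 2. Pcnt, Tubg1 and Pcm1 were added after their values were seen. Of each related list, up to 4 genes that rose or fell are named by size of change per comparison, and Syne1, Kif24 at day 2 and day 5 and S100b were added after their values were seen. Members, lists and motifs were chosen with earlier results of these data known. Alternatives were other scales, filters, variance models, probe set rules, a 1.5-fold limit, a replicate block, a shorter promoter window and leaving out each array.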

Additional observations from a re-analysis of the deposited data

How the results depend on the processing

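Each count kept within 1.5 times of its value under the settings not named here, which were no filter, a filter at the array median, trend and robust variance, the block and leaving out arrays. As deposited alone, falls numbered 34 of the 49 genes and 44 of the 64 related genes at day 5, and 10 and 15 at day 5 against day 2. Over all 16582 genes tested, the falls as deposited alone numbered 4840 and 2548. On the common scale alone, rises numbered 2 of the 49 at day 2 and 2 at day 5, and 3, 4 and 1 of the related genes at day 2, at day 5 and at day 5 against day 2. Over all genes tested, the rises on the common scale alone numbered 1281, 1960 and 461. Median centring gave 35 falls of related genes at day 5 and 8 at day 5 against day 2. With a 1.5-fold limit, 27 of the 49 fell and 2 rose at day 2 and 12 fell at day 5 against day 2; of the related genes 5 rose at day 2, 2 rose at day 5 and 12 fell at day 5 against day 2. With the mean of all probe sets 2 related genes rose at day 2 and 2 at day 5. For median centring, the 1.5-fold limit and the mean of all probe sets, no count over all genes tested is given here. Those counts are therefore not set against a background. The window from 150 bases before the start held an E2F spelling in 10 members (24.4%, against 1686 of 13007 tested genes) and CAGCTG in 2 (4.88%, against 14.2%), fewer bases having been searched. For the scales and the probe set rule, the cause was not tested.

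Leaving out 1 array at a time gave 16 falls and 1 rise among the 49 genes at day 2, 21 to 23 falls and 0 rises at day 5, and 4 falls and 0 rises at day 5 against day 2, and for related genes 18 to 20, 21 to 24 and 2 to 3 falls with 1, 1 and 0 rises. No direction of a called gene was reversed. Cep126 at day 5 (-0.96) lost its call with median centring, as did Cep192 at day 5 against day 2. The replicate block left 16, 22 and 4 falls of the 49 genes. Deviations of arrays with the same number correlated at -0.04 to 0.11 and those with different numbers at -0.15 to 0.16, which shows no sign of pairing. Values normalized by replicate set and often identical limit this check, so it cannot exclude that the numbers pair the samples. Precision is limited by 3 arrays per time point and by replicate values that are often identical.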
